A study of Arabidopsis thaliana with 15 samples.

Results

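ZW9, AT3G20370, AT5G26260 and AT5G26280 are 4 TRAF-like genes of Arabidopsis thaliana, and their transcripts were followed in sorted cells of the root with and without brassinolide. Each has 1 probe set that the annotation gives to it alone, so the 4 probe sets described here are 4 of the 13513 that match a single gene, among 22746 tested on the Affymetrix ATH1 array. They were chosen from the difference between brassinolide and control in one of the sorted lines, ATHB15. Their values in that comparison are therefore given as a description, with no test. The other line, WOL, was tested. The genes were chosen with earlier results of these arrays known, so the WOL tests may not be independent of the choice.

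Primary roots of 6-day-old seedlings were moved to plates with 10 nM brassinolide (BL, a steroid hormone of plants), then digested to protoplasts over 2 h and sorted for fluorescence. In the line called WOL here, pWOL:GFP marks stele cells, the vascular tissue with the pericycle around it, and in the line called ATHB15, pAtHB15:YFP marks provascular cells, the dividing precursors of the vascular tissue. The 7 groups are WOL control, WOL after 0.5, 1, 2 or 4 h of BL, and ATHB15 BL at 2 h, with 2 arrays each, and ATHB15 control with 3 arrays. The labels name no mutation or strain in either line, no mock transfer matched in time, and no separate cultures for the replicates, so p-values may measure technical spread only.

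The TRAF domain, also called the MATH domain, is a protein-binding fold named after the adaptor proteins that carry signals from tumour necrosis factor receptors in animals. Plants have many proteins with this fold. Some of them join it to a BTB domain and act as substrate adaptors of cullin 3 ubiquitin ligases, as BPM3 does, while many others, the TRAF-like genes described here among them, carry no established role in the sources used here. Brassinosteroids are perceived at the cell surface by the receptor kinase BRI1, and the signal reaches the nucleus through the transcription factors BZR1 and BES1, which raise some genes and lower others, including genes of hormone synthesis.

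Values are signal intensities as deposited, already scaled to a common trimmed mean on every array, and differences are on the log2(signal + 16) scale, which understates the change of dim probe sets. The detection call (present, marginal or absent) says whether a probe set stood above background, and the share called present per array ran from 49.5% to 59.6%. A probe set was called changed at a Benjamini-Hochberg adjusted p under 0.05 in limma, over all 22746 probe sets. The transcripts of the sorting genes WOL and ATHB15 themselves were not among the probe sets with a gene listed, so the sorts were set against other marker genes. Of the 4 measured genes of the stele list, LHW and PHV, regulators of vascular cell division and patterning, and AT5G12050 were called present on all 15 arrays. The fourth, AT5G02460, was called absent on all 10 WOL arrays and present on 3 of the 5 ATHB15 arrays. Some markers of outer tissues were detected too: EXPA7, a root hair expansin, was present on 9 of 10 WOL arrays and AT5G54370, of the root cap list, on all 10. In ATHB15, EXPA7 was present on 1 of 3 controls and 1 of 2 BL arrays, and AT5G54370 on 2 of 3 and 2 of 2. Of the endodermis and cortex list, AT4G28100 was present on most WOL and all ATHB15 arrays. In WOL, AT1G62500 was present on 1 array, at 0.5 h, and AT1G09750 on none. WOL control B stood apart from WOL control A. On the first principal component, which held 49.7% of the variance, it lay at 21.41 and A at -41.97. The other WOL arrays lay between -98.37 and -16.21, the places of 4 h arrays A and B, which were thus far apart as well. The ATHB15 arrays lay between 59.78 and 107.9. Results that rest on the WOL control are given with each of its arrays left out.

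In the ATHB15 line all 4 genes were low without BL and high after 2 h of it. ZW9 had signals of 59.1, 20.8 and 179.3 in the 3 control arrays, of which the second was called absent, and of 2344.1 and 1777.2 in the 2 BL arrays, both called present. The groups did not overlap, and the lower BL array lay far above the highest control. The difference was 4.66 ± 0.72 on the log2 scale (estimate ± SE), a fold of 25.3, with mean signals of 2061 against 86.4. Leaving out control 2 brought the fold to 17 and leaving out control 3 raised it to 39.1.

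AT3G20370 was called absent on all 3 control arrays, at 4.9, 32.2 and 34.0, and present on both BL arrays, at 417.3 and 218.5. The log2 difference was 3.11 ± 0.56. Because the controls were not above background, the fold is given only as a limit, taken against the dimmest present probe set of the same array wherever the absent signal was dimmer still. On that scale the BL level was at least 8.15-fold higher, and the limit ran from 6.00 to 11.1 when 1 array was left out. Such a limit allows for background only and not for the spread between arrays.

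AT5G26260 was likewise absent on all 3 controls, at 15.8, 38.2 and 40.3, and present under BL, at 217.8 and 572.7. The 2 BL arrays differed from each other more than those of the other genes, and both stood clear of the controls. The log2 difference was 3.01 ± 0.67. No control signal was dimmer than the dimmest present probe set, so the limit of 8.07-fold is simply the fold of that difference. It was 12.8 without BL array 1 and 5.09 without BL array 2.

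AT5G26280 showed the smallest difference of the 4. Its controls were absent at 10.8, 23.6 and 35.2 and its BL arrays present at 169.7 and 69.3, again with no overlap. The log2 difference was 1.73 ± 0.40, at least 3.32-fold, and between 2.25 and 4.90 with 1 array left out. Here too the limit is the fold of the difference.

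**Figure D1:**
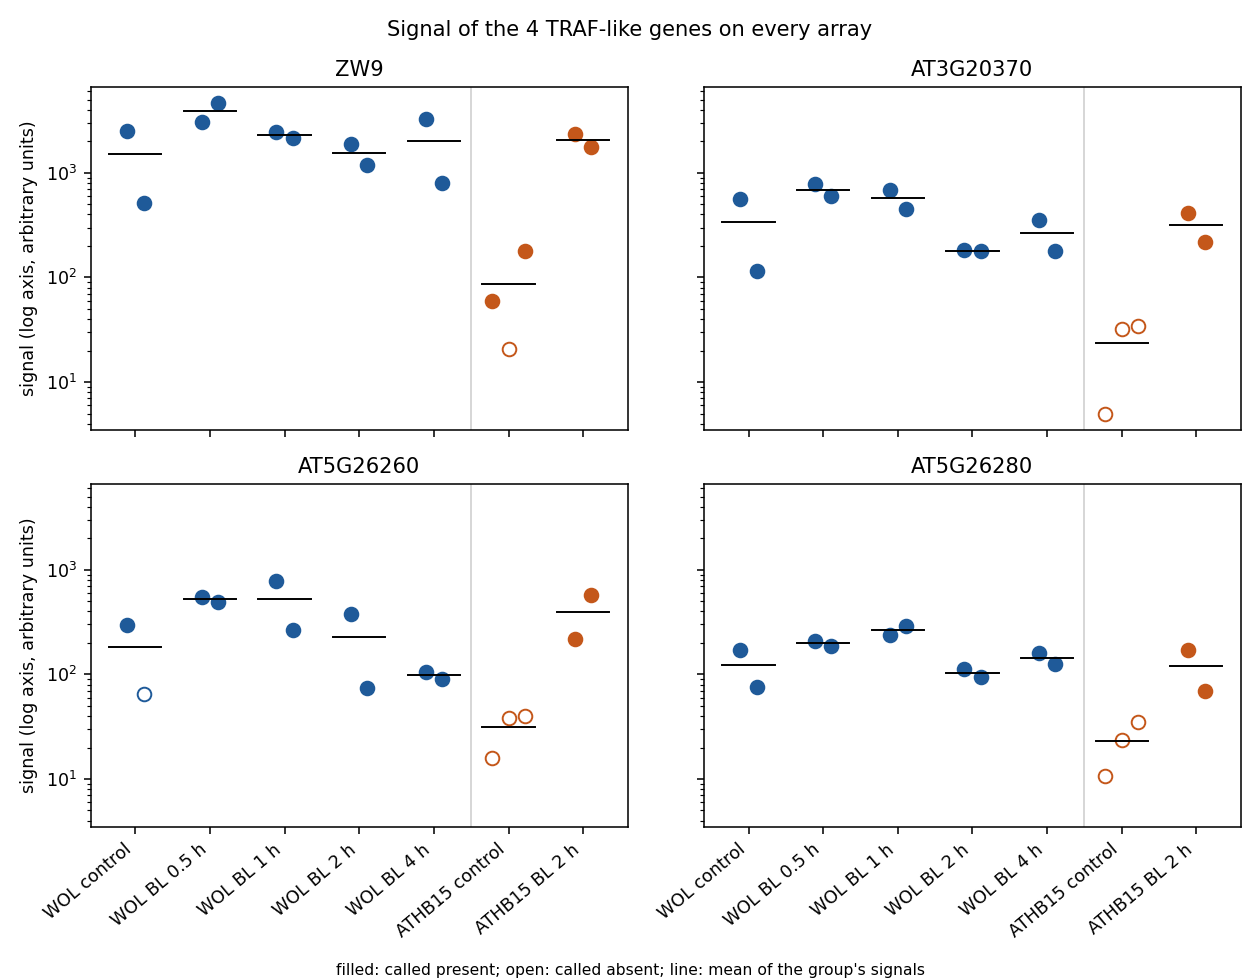
Signal of each gene on each of the 15 arrays, on a log axis in arbitrary units, by group. Filled points were called present, open points absent, and lines are the means of the group's signals. In all 4 panels the 3 ATHB15 control arrays lie below every other array.

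The BL arrays lay above all controls for 4 of 4 genes, as they did for 15% of all probe sets. In the fit, 3 of the 4 were among the probe sets called higher, which made up 0.352% of all, while 0.761% were called lower. The choice of the genes used this comparison, so these counts support nothing about them. Over all probe sets the median difference was -0.03. In pooled cells, a change in the number of cells that hold a transcript and a change in the RNA per cell cannot be told apart.

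RNA quality and some marker genes were compared in the same arrays. The 3′ to 5′ signal ratio of the ubiquitin control probe sets, which rises with RNA degradation and with amplification, was 5.99 to 9.07 in the ATHB15 BL arrays and 4.01 to 4.85 in the controls, with no overlap. With that ratio as a covariate the log2 differences of the 4 genes were 4.98, 3.43, 3.17 and 1.87 for ZW9, AT3G20370, AT5G26260 and AT5G26280, but over all probe sets the number called fell from 253 to 1. With the GAPDH ratio in its place they were 4.35, 2.71, 2.10 and 1.64, where AT5G26260, at 2.10, had been at 3.01 without a covariate. The GAPDH ratio was 1.09 to 2.23 under BL and 1.75 to 3.38 in the controls. For actin the ratio was 5.68 to 20.3 under BL and 12.8 to 26.8 in the controls. Both overlapped and ran lower under BL, unlike the ubiquitin ratio. Of the 21 listed markers of tissues outside the stele, 5 had a probe set, and their summed signal was 117.7 to 1136.6 in the ATHB15 controls and 208.9 to 806.2 under BL, so the groups overlapped. Most of that spread came from AT5G54370, at 17.1, 109.1 and 901.5 in the controls and 611.3 and 73.9 under BL. The 3 markers of endodermis and cortex summed to 98.4 to 199.3 in the controls and 78.9 to 189.9 under BL. EXPA7, the only measured marker of the epidermal list, ranged from 2.2 to 87.3 in the controls and from 5.0 to 56.1 under BL.

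The stele list had 4 of its 17 genes measured. Their summed signal overlapped between ATHB15 control, at 2144 to 3283, and BL, at 2507 to 3480. One of them, AT5G12050, was called lower under BL in ATHB15 (log2 difference -1.98 ± 0.28, limma adjusted p = 0.00590). It fell from 319.0, 339.3 and 349.4 in the controls to 78.5 and 68.6 under BL, and this call was lost without BL array 2 and with the ubiquitin ratio as a covariate. The part of cell composition in the rise of the 4 genes was not tested.

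The 4 genes stood higher in the untreated stele cells than in the untreated provascular cells. ZW9 had signals of 2517.6 and 511.4 in WOL control A and B, AT3G20370 of 564.1 and 115.4, AT5G26260 of 296.9 and 65.6, and AT5G26280 of 170.5 and 75.5. All were called present except AT5G26260 in WOL control B, and each was above the 3 ATHB15 controls of its gene. Control A was above control B for every gene.

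That order held for 4 of 4 genes, against 18.1% of all probe sets. All 10 WOL arrays, treated or not, lay above the 3 ATHB15 controls for 4 of 4 genes, against 7.39% of all probe sets. The lines were sorted separately with different reporters, so line and sort cannot be told apart. The genes were also chosen for a low ATHB15 control relative to its BL arrays, so the comparison is a description.

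The size of that difference depended on which WOL control was used. For ZW9 the log2 difference, WOL control minus ATHB15 control, was 3.83, and it was 2.70 without WOL control A and 4.96 without B. AT3G20370 was at least 7.06-fold higher in WOL control, and at least 3.36-fold without A and 14.8-fold without B. For AT5G26260 the log2 difference was 1.80, and the limit was 6.81-fold without B. With B included no limit can be given for it, with or without A, since control B was called absent as well. For AT5G26280 the limit was 3.45-fold (2.42 without A, 4.92 without B).

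Ordered by mean log2 level, ATHB15 control was the lowest of the 7 groups for each of the 4 genes and did not overlap the next group up. It lay below that group by 3.83 for ZW9, 2.41 for AT3G20370, 1.31 for AT5G26260 and 1.65 for AT5G26280. At the other end, WOL BL at 0.5 h was highest for ZW9, AT3G20370 and AT5G26260, and WOL BL at 1 h was highest for AT5G26280. The other of these early times came next to the highest for every gene. WOL control, WOL BL at 2 h, WOL BL at 4 h and ATHB15 BL filled the remaining places, and neighbours among these 4 groups overlapped for every gene. Toward the top, the step of ZW9 without overlap was from 1 h to 0.5 h, by 0.71, and that of AT3G20370 from ATHB15 BL to 1 h, by 0.84. AT5G26280 had such steps from 4 h to 0.5 h, by 0.43, and from 0.5 h to 1 h, by 0.39.

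After 2 h of BL, ATHB15 cells held the 4 transcripts at levels within or near the range of the WOL arrays. ZW9 was at 1777.2 to 2344.1 in ATHB15 BL against 511.4 to 4661.5 over the 10 WOL arrays, whose median was 2301. AT3G20370, at 218.5 to 417.3, lay inside its WOL range of 115.4 to 776.5, and AT5G26260, at 217.8 to 572.7, inside 65.6 to 782.6. AT5G26280 had 1 array, at 69.3, just below its WOL range of 75.5 to 288.4, and the other, at 169.7, inside it. The difference between lines in the response to BL was not tested for the 4 genes, since the choice fixed one side of it.

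Over the WOL time course the 4 genes were highest at 0.5 h and 1 h and lower at 2 h and 4 h. ZW9 had signals of 3051.4 and 4661.5 at 0.5 h, 2470.9 and 2130.6 at 1 h, 1874.9 and 1196.2 at 2 h, and 3256.8 and 804.0 at 4 h, in arrays A and B. Both arrays at 0.5 h lay above both controls, and the arrays of the later times lay both above and below control A. Against the control, the log2 difference of ZW9 was 1.71 at 0.5 h, then 1.00, 0.39 and 0.50 at the later times, each ± 0.79.

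AT3G20370 read 776.5 and 598.9 at 0.5 h, 690.4 and 446.2 at 1 h, 183.6 and 177.9 at 2 h, and 356.9 and 177.2 at 4 h. Both arrays of 0.5 h exceeded both controls, and all 4 arrays of 0.5 h and 1 h exceeded all 4 of 2 h and 4 h. Its log2 differences from the control were 1.34 ± 0.62, 1.05 ± 0.62, -0.49 ± 0.62 and -0.04 ± 0.62 in order of time.

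AT5G26260 read 552.4 and 492.4 at 0.5 h, 782.6 and 262.7 at 1 h, 379.6 and 74.7 at 2 h, and 105.7 and 91 at 4 h. Its replicates were close at 0.5 h and 4 h and apart at 1 h and 2 h. The differences from the control were 1.75 ± 0.73, 1.56 ± 0.73, 0.25 ± 0.73 and -0.49 ± 0.73.

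AT5G26280 read 208.8 and 186.0 at 0.5 h, 240.3 and 288.4 at 1 h, 112.4 and 93.4 at 2 h, and 160.5 and 126.7 at 4 h. It was the gene with its peak at 1 h, and here too all arrays of 0.5 h and 1 h stood above those of 2 h and 4 h. The differences from the control were 0.71 ± 0.44, 1.10 ± 0.44, -0.14 ± 0.44 and 0.28 ± 0.44.

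No WOL difference passed the test. Limma called 0 of 22746 probe sets (0%) at each of the 4 times and 0 (0%) in the F test over the time course, while 2057, 1510, 1505 and 1903 probe sets, in order of time, and 1301 in the F test had an unadjusted p under 0.05. Adjusted p-values of the 4 genes ran from 0.544 to 0.622 at 0.5 h and from 0.744 to 0.784 at 1 h. At the 2 later times they were 0.910 to 0.974 and 0.880 to 0.994. The 4 times share the same 2 control arrays.

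At an unadjusted p under 0.05, 3 of the 4 genes were higher at 0.5 h, where 3.68% of all probe sets were. These were ZW9, AT3G20370 and AT5G26260. At 1 h AT5G26280 was the 1 of 4, against 2.56%, and at 2 h and 4 h 0 of 4 were, against 1.89% and 3.37%. In the F test the unadjusted p was 0.0450 for AT3G20370, 0.0302 for AT5G26260, 0.0731 for AT5G26280 and 0.290 for ZW9. Thus 2 of 4 were under 0.05, against 5.72% of all probe sets, and none passed the adjustment. Because the genes were chosen with earlier results of these arrays known, these counts are not independent evidence.

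These sizes rested on WOL control B. Without it, the log2 differences at 0.5 h were 0.58 for ZW9, 0.27 for AT3G20370, 0.78 for AT5G26260 and 0.19 for AT5G26280. Without WOL control A they were 2.84, 2.41, 2.72 and 1.22. At 1 h, ZW9 and AT3G20370 had differences of -0.13 and -0.02 without control B and of 2.13 and 2.12 without control A. In none of these fits did 1 of the 4 pass the adjusted threshold.

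A comparison of early with late times uses no control array. For AT3G20370 and AT5G26280 the arrays of 0.5 h and 1 h were all above those of 2 h and 4 h, which was so for 1.67% of all probe sets. For ZW9 the 4 h array A, at 3256.8, and for AT5G26260 the 2 h array A, at 379.6, were within the range of the earlier arrays. This grouping of the times was chosen after the values were seen and was not tested.

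RNA quality also differed along the WOL course. The 3′ to 5′ ratio of the GAPDH control probe sets was 2.71 to 4.66 in the WOL controls and 1.24 to 1.47 after 0.5 h of BL, with no overlap. It was 2.04 to 2.23, 1.91 to 2.85 and 3.33 to 3.84 at the next times in order. With this ratio as a covariate the 0.5 h differences became 0.98 for ZW9, 0.40 for AT3G20370, -0.40 for AT5G26260 and 0.49 for AT5G26280, so 3 stayed positive and 1 turned. WOL control B, the lower control for each of the 4 genes, had ubiquitin, GAPDH and actin ratios of 7.43, 4.66 and 48.3. In control A they were 5.07, 2.71 and 28.4. Whether this bears on the low values of control B was not tested.

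Markers of tissues outside the stele differed along the course as well. The summed signal of the 5 measured outer markers was 550.1 to 818.5 in the WOL controls, 931.1 to 946.0 at 0.5 h and 1240 to 1451 at 1 h, then 437.0 to 660.1 at 2 h and 423.5 to 667.6 at 4 h. It was higher in all arrays of 0.5 h and 1 h than in the other WOL arrays, and none of the 5 markers had a signal of 0. The markers did not move together. AT5G54370 was at 315.3 to 387.2 in the controls, 203.4 to 293.4 at 0.5 h and 731.7 to 984.1 at 1 h, so it was lower than the controls at 0.5 h. The 3 markers of endodermis and cortex summed to 136.7 to 146.3 in the controls, 127.4 to 140.7 at 0.5 h and 114.4 to 122.3 at 1 h. Among these 3, AT1G62500 had a mean of 36.5 at 0.5 h against 24.1 in the controls, with overlap. EXPA7, which made up most of the outer sum at 0.5 h, had 294.6 and 88.5 in WOL control A and B. It had 525.2 to 587.0 at 0.5 h, 141.7 to 597.1 at 1 h, 228.6 to 492.1 at 2 h and 126.7 to 264.3 at 4 h. Its correlation with the mean log2 level of the 4 genes was 0.78 over the 10 WOL arrays and 0.65 over all 15. The summed signal of the 4 measured stele genes was 1590 to 2650 in the WOL controls and 1455 to 1468 at 0.5 h. The part of RNA quality or of outer cells in the WOL differences was not tested.

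**Figure D2:**
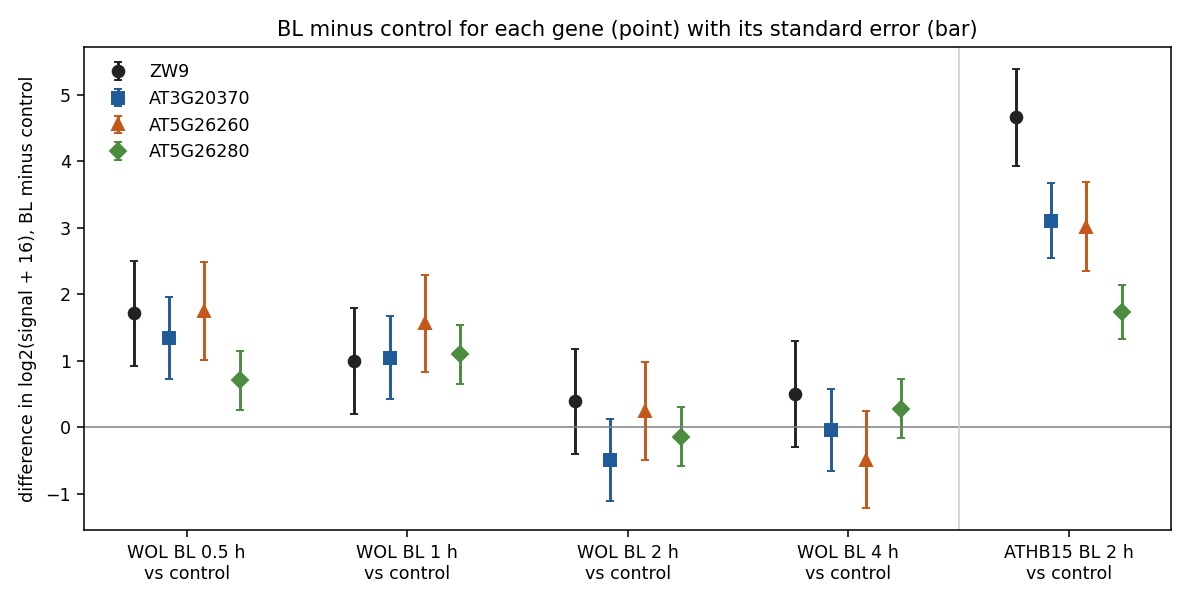
Difference in log2(signal + 16), BL minus control, for each gene at each WOL time and in ATHB15, with standard errors from the limma fit. The ATHB15 differences run from 1.73 to 4.66 and are those the genes were chosen on, and the WOL differences lie between -0.49 and 1.75.

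The 4 genes followed each other closely. Pearson correlations of their log2 levels ranged from 0.77, between AT5G26260 and AT5G26280, to 0.96, between AT3G20370 and AT5G26280, over 15 arrays, and from 0.71 to 0.88 over the 10 WOL arrays. They share the arrays, and the wider range in 15 arrays holds the ATHB15 step they were chosen on. The counts over the 4 genes are therefore not counts of independent results.

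The genes lie on chromosomes 1 (ZW9, locus AT1G58270), 3 (AT3G20370) and 5 (AT5G26260 and AT5G26280), per the reference gene table of assembly TAIR10.1. AT5G26260 and AT5G26280 are close neighbours, with 4 annotated genes between them, of which 2 are protein-coding. AT5G26270, the numbered gene between them, was called present on 10 of 10 WOL arrays, at 88.9 to 210.5. In ATHB15 it was at 25.4 to 98.0 in the controls and 29.7 and 136.6 under BL, with overlap, and its log2 difference of 0.33 ± 0.50 was not called (limma adjusted p = 0.846).

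AT5G26250, on the other side of AT5G26260, was called absent on all 15 arrays. Its signal was at most 40.9, so no fold is given.

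Few other genes of the family could be followed. Of 50 genes listed as TRAF-like or MATH domain genes, 17 had a probe set of their own, and 13 of these were not among the 4. In ATHB15, 0 of the 13 were called, and 0 had an unadjusted p under 0.05 in limma. Over all probe sets 0.352% were called higher and 0.761% lower, so a count of 0 among 13 is near the background, and 3113 of 22746 had an unadjusted p under 0.05. Their median log2 difference was -0.03, the same as over all probe sets at this rounding. In WOL, 0 of the 13 were called at any time and 0 had an unadjusted p under 0.05 in limma. Their medians were -0.07, -0.13, -0.07 and 0.00 in order of time, against -0.08, -0.09, -0.11 and -0.05 over all probe sets.

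Detection divided the 13. AT1G04300, AT3G17380, AT5G43560 and BPM3 were called present on all 15 arrays, and the other 9 on none. The ATHB15 log2 differences of the detected genes were 0.04 ± 0.29, -0.57 ± 0.62, -0.03 ± 0.33 and -0.11 ± 0.34 in that order. Mean signals of BPM3, a MATH-BTB substrate adaptor, were 341 under BL and 384 in the control, and those of AT5G43560 were 925 and 972. Among the undetected genes, AT4G00780 and AT2G01790 had the most negative differences in ATHB15, -0.83 ± 0.44 and -0.66 ± 0.54, at signals where no fold can be given.

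**Figure D3:**
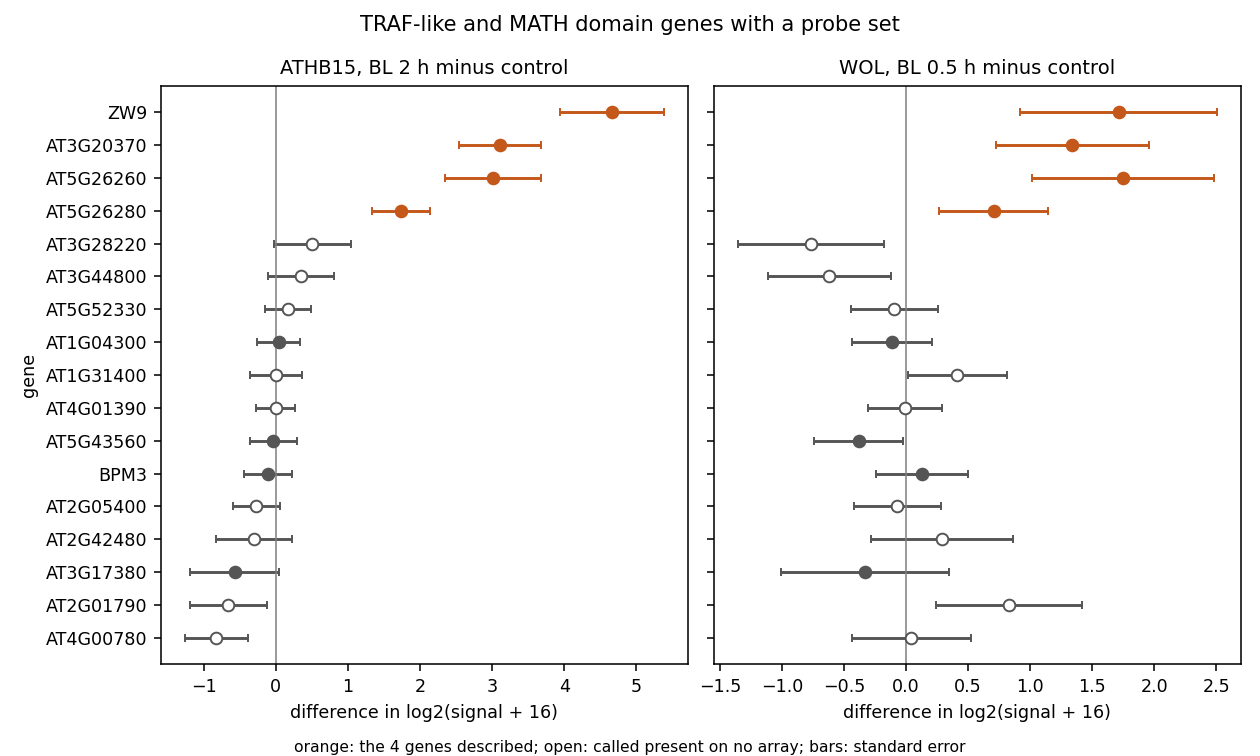
Difference in log2(signal + 16) with its standard error for the 17 measured TRAF-like and MATH domain genes, in ATHB15 at 2 h of BL (left) and in WOL at 0.5 h (right), sorted by the ATHB15 value. The 4 genes described are in orange, and open points were called present on no array. In ATHB15 the 13 others lie between -0.83 and 0.51.

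The genes most like the 4 were sought among 8552 single-gene probe sets called present on at least 2 arrays, by Pearson correlation with the mean log2 profile of the 4. Over 15 arrays the highest were NAI2 (0.96), JAL34 (0.95), AT1G67330 (0.93), AT1G66800 (0.92), UGT72E2 (0.91), AT1G22440 (0.91), AT2G21850 (0.91) and AT1G62660 (0.91), while the 95th percentile of all candidates was 0.67. NAI2 is a protein needed to form ER bodies, compartments of the endoplasmic reticulum that store beta-glucosidases, JAL34 is a jacalin-related lectin, and UGT72E2 is a glucosyltransferase of phenylpropanoid metabolism. The points are arrays that share groups and scaling, so the correlations are a description.

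NAI2 was called absent on the 3 ATHB15 controls, at 29.7, 30.4 and 69.2, and present under BL, at 380.4 and 353.6. It was at least 6.77-fold higher under BL (log2 difference 2.76 ± 0.42, limma adjusted p = 0.00810). In WOL it was at 349.8 and 111.0 in the controls, between 363.4 and 444.4 at 0.5 h and 1 h, and between 137.7 and 260.1 at 2 h and 4 h. Its control B, like that of the 4 genes, was the lower one. NAI2 and JAL34 were picked for following a profile that holds the ATHB15 step, so their ATHB15 p-values are not independent evidence.

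JAL34 was called present throughout. It rose from 406.3, 163.5 and 335.7 in the ATHB15 controls to 1755.0 and 1924.4 under BL (log2 difference 2.63 ± 0.44, limma adjusted p = 0.0136). In WOL it had 1890.8 and 687.6 in the controls, 2251.7 to 3060.2 at 0.5 h and 1 h, and 720.9 to 1264.0 at 2 h and 4 h. The calls of NAI2 and JAL34 were lost when either ATHB15 BL array was left out and with the ubiquitin ratio as a covariate, where limma's adjusted p-values reached 0.185 and 0.248. A lone BL array is there assumed to vary like the other groups. Over the 27 alternatives the differences stayed between 2.03 and 3.17 for NAI2 and between 2.27 and 2.88 for JAL34. The call of JAL34 was lost as well with an offset of 1, with the GAPDH ratio and in a fit of the ATHB15 arrays alone.

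**Figure D4:**
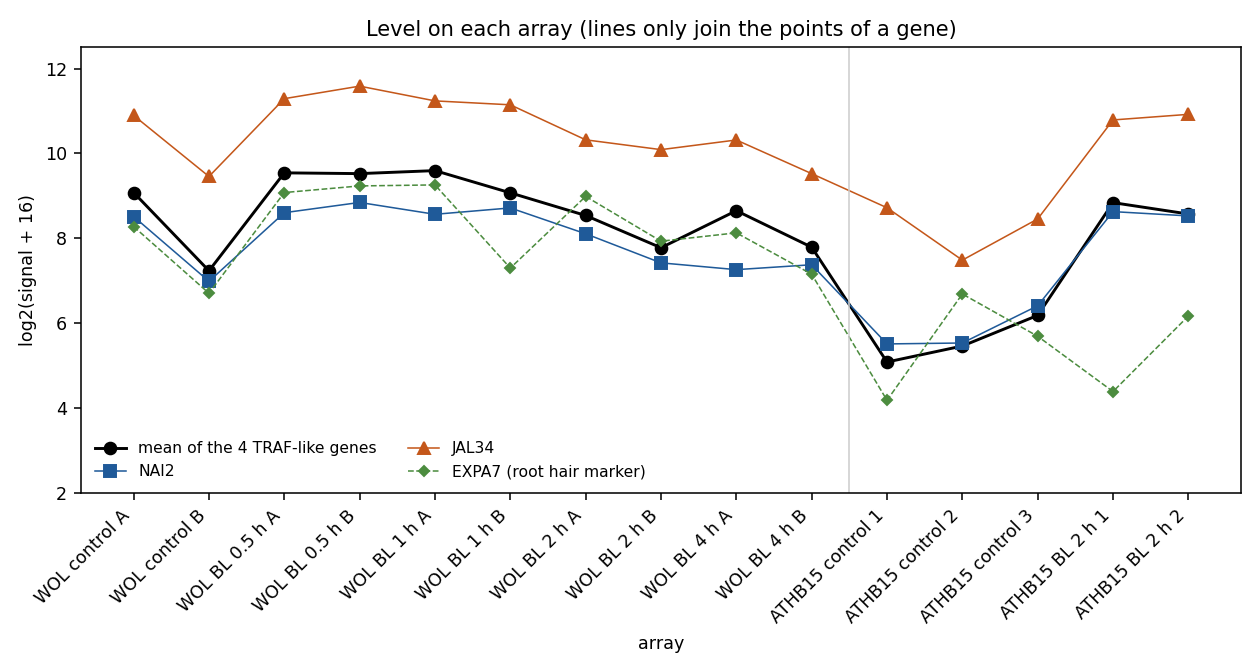
Level as log2(signal + 16) on each of the 15 arrays for the mean of the 4 TRAF-like genes, NAI2, JAL34 and the root hair gene EXPA7. The mean of the 4 genes is 5.09 to 6.19 in the ATHB15 controls, 8.57 to 8.84 under BL, and 7.24 in WOL control B against 9.08 in A.

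ER body genes were listed as a set, of which 8 of 20 had a probe set. In ATHB15, 2 were called higher, NAI2 and JAL34, and 0 lower, where 0.352% of all probe sets were called higher and 0.761% lower. Of the 8, 5 had a positive difference, and their median was 0.83 against -0.03 over all probe sets. PYK10, the main beta-glucosidase of root ER bodies, had signals of 554.8, 171.2 and 336.2 in the controls and 1786.4 and 807.8 under BL. Its difference of 1.86 ± 0.55 was not called (limma adjusted p = 0.125), although the arrays did not overlap.

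JAL33, another jacalin-related lectin, was absent on the 3 controls, at 29.7 to 62.4, and at 191.3 and 157.0 under BL, at least 2.93-fold higher without a call (limma adjusted p = 0.0668). NAI1, the bHLH transcription factor that switches on ER body genes, was mostly not above background. It was called absent on 2 of 3 controls and 1 of 2 BL arrays, with signals of 127.4, 31.7 and 55.7 in the controls and 26.3 and 27.6 under BL, and it did not pass the test (log2 difference -0.88 ± 0.56, limma adjusted p = 0.552). In WOL, 0 of the 8 were called at any time by limma, JAL34 had an unadjusted p under 0.05 at 0.5 h, and the list had medians of 0.32, 0.28, -0.04 and -0.13 in order of time. The list was drawn up with earlier results of these arrays known, so it is not independent evidence of a direction.

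Each of the other 6 genes was called absent on at least 2 of the 3 ATHB15 controls. AT1G67330 and AT1G66800 were absent on all 3 controls and were at least 6.45-fold and 2.42-fold higher under BL. AT1G62660 went from 57.4, 38.7 and 64.1 to 646.1 and 354.7, and AT1G22440 from 79, 35.9 and 43.5 to 435.8 and 326.5, each with 2 of 3 controls called absent and both BL arrays present. Of the 8 genes, limma called 6 in ATHB15, all but UGT72E2 (adjusted p = 0.289) and AT2G21850 (adjusted p = 0.0759). They were picked for following a profile that holds this step.

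Over the 10 WOL arrays alone the 5 genes most like the 4 were JAL34 (0.96), AT3G32030 (0.95), AT3G21770 (0.94), AT4G17280 (0.94) and AT5G21105 (0.94), with a 95th percentile of 0.72. JAL34 is the 1 gene on both lists. Over all 15 arrays the correlation was 0.89 for AT3G32030, 0.65 for AT3G21770, 0.56 for AT4G17280 and 0.05 for AT5G21105. In ATHB15, AT5G21105 had signals of 189.5 to 239.2 in the controls and 69.8 and 77.2 under BL, the opposite order to the 4 genes. AT3G21770 was at 141.7 to 177.6 in the ATHB15 controls and 132.2 and 77.6 under BL. The probe set of AT3G32030 is of the kind that can match more than 1 transcript.

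Of 10 genes listed for brassinosteroid feedback and response, 2 had a probe set. EXO, a gene raised by brassinosteroids in Arabidopsis, had mean signals of 389 in the ATHB15 control and 323 under BL and was not called (log2 difference -0.30 ± 0.36, limma adjusted p = 0.794). AT2G43880 was absent on the 3 ATHB15 controls and called higher under BL, at least 3.36-fold (limma adjusted p = 0.0466). That call was lost under 18 of 27 alternative settings, among them each fit without 1 ATHB15 BL array, where the limit was 2.78-fold without array 1 and 4.06-fold without array 2. In WOL neither was called at any time. EXO had log2 differences of 0.67, 0.69, 0.92 and 0.72 in order of time, each ± 0.40. At each time both BL arrays of EXO lay above both controls. Its unadjusted p was under 0.05 in limma at 2 h, where 1.89% of all probe sets were higher at that threshold. The WOL differences of AT2G43880 were 0.51, 1.09, 0.28 and -0.004, each ± 0.51.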

How the data were processed

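The deposited tables hold linear signal intensity for 22810 probe sets on 15 arrays, and per the file headers also a detection p-value and a detection call (the other kind of column). The 2 tables held identical signals at 342150 of 342150 values. Column headings match Affymetrix MAS5. Which software made them is not given in the sources used. RNA was amplified in 2 cycles, per the labels' protocols. The 64 control probe sets were left out of the tests, and the 3′ to 5′ ratios were taken from some of them. The 30 pair-count columns were not used. Signals were analysed as log2(signal + 16) with limma 3.58.1 (R 4.3.3), fitting a mean per group over all 7 groups, with 8 residual plus 6.34 prior degrees of freedom and two-sided tests adjusted over 22746 probe sets. The number of arrays limits precision. The fit was tested on simulated data. Members, gene lists and marker lists were chosen with earlier results of these data known. Named genes are the 4 members, the 8 and 5 most correlated genes, called list members or else those with the largest differences, and chromosome neighbours. Probe sets were named through the platform annotation and the RefSeq gene table: 13513 match 1 gene, 503 several and 8730 none. Alternatives covered the offset, normalization, a detection filter, a replicate block, array weights, RNA quality covariates, the samples fitted and each array left out.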

Additional observations from a re-analysis of the deposited data

How the results depend on the processing

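Over 27 alternatives no WOL difference of the 4 genes passed the adjusted threshold. In ATHB15 their differences stayed positive in all 108 fits, though AT3G20370 moved to 4.00 with an offset of 1 and to 2.09 with 64. The genes were chosen on this comparison, so that count supports nothing about them. Many of these fits, such as those without 1 WOL array, also could not change the ATHB15 estimate. Signs in WOL changed in some fits, mostly with the control arrays. Leaving out 1 array gave, at 1 h, -0.13 to 2.13 for ZW9 and -0.022 to 2.12 for AT3G20370. At 2 h it gave -0.74 to 1.52 for ZW9, -1.56 to 0.58 for AT3G20370, -0.82 to 1.31 for AT5G26260 and -0.65 to 0.37 for AT5G26280. At 4 h it gave -0.63 to 1.64 for ZW9, -1.11 to 1.03 for AT3G20370, -1.46 to 0.48 for AT5G26260 and -0.23 to 0.79 for AT5G26280. AT5G26260 also turned to -0.40 at 0.5 h and -0.69 at 2 h with the GAPDH ratio as a covariate, and to -0.18 at 2 h with the actin ratio. AT5G26280 at 2 h became 0.0035 under quantile normalization and 0.033 under median centring. AT3G20370 at 4 h became 0.074, 0.052 and 0.045 under quantile normalization, median centring and the actin ratio. The cause of these changes was not tested. Of all probe sets, 1 was called at 0.5 h with an offset of 1, and 1 at 1 h with median centring and 1 with the detection filter. Leaving out 1 array gave 0 to 1 calls at 1 h and 0 to 21 at 4 h, the 21 without WOL BL 4 h replicate B. The ATHB15 count of 253 became 103 with an offset of 1, 479 with the detection filter, 1 with the ubiquitin ratio, 63 with the GAPDH ratio, 96 with the actin ratio, 47 with the line's own arrays only, and 20 to 381 with 1 array left out. With a replicate block it became 75, and the ZW9 difference 5.29. In their deviations from group means, same-lettered WOL arrays correlated at -0.19 to 0.42 and same-numbered ATHB15 arrays at -0.04 to 0.06. The mean log2 level of the 4 genes was higher in array A than in array B in every WOL group. Whether the labels pair the samples is therefore not settled. No probe set was called in WOL with or without the replicate block, so the block could not show a change of calls there. Of the 8 genes most like the members, 2 were among the first 8 by Spearman correlation and 2 over the 10 WOL arrays. With group medians, ATHB15 control remained lowest for 4 of 4 genes. Detection limits the sizes: 3 of the 4 genes were at background in every ATHB15 control.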
